A study of Mus musculus with 20 samples.

Results

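Deletion of Tcf7, the gene of the transcription factor TCF1, was compared with its floxed littermates in intraepithelial lymphocytes (IELs), the T cells that sit within the gut epithelium. The comparison took the 4 libraries that the labels give the genotypes Tcf7fl/fl Cd8cre (the knockout, 2 libraries) and Tcf7fl/fl (the littermate, 2 libraries), out of 20 libraries in the series. Genes entered when their value was at least 50 in 2 or more of the 4 libraries, which 15210 of 25036 listed genes did. All 4 libraries came from total CD8αα+ TCRαβ+ cells of the small intestine of unchallenged mice, whose age is not given in the sources used here. Both groups carry the floxed Tcf7 alleles, and Cd8cre, a Cre recombinase driven from Cd8 regulatory sequence, is named in the knockout genotype alone. An effect of Cd8cre itself and the loss of Tcf7 therefore cannot be told apart. The rest of the series holds a sort of RFP+CD160+ against RFP-CD160- IELs from Bcl6-RFP reporter mice, the Prdm1 and Bcl6 deletions made with the same Cre, and 2 libraries that the labels put in no group.

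TCF1 is a DNA-binding protein that, with its relative LEF1, carries the nuclear output of Wnt/β-catenin signalling and also acts in T cells without it. In conventional CD8+ T cells it is known for keeping memory and stem-like cells from becoming full effector cells, and for raising Bcl6 while holding down Prdm1, which encodes BLIMP1. TCRαβ+CD8αα+ IELs arise from self-reactive thymic precursors, carry the CD8αα homodimer and many natural killer (NK) cell receptors, and hold large stores of granzymes. The design asks which genes of these cells depend on Tcf7.

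The values are reads divided by a size factor for each library, with no correction for gene length, and are called scaled reads here. They give a gene's level for comparison between libraries, not between genes. The littermate libraries held 47452929 and 40975335 reads and the knockout libraries 45709824 and 48206386. Of the defining IEL markers, Cd8a (CD8α) stood at 150220 ± 3715 scaled reads in littermates and 153569 ± 143 in knockouts (SD, n = 2 in each group here and below). Cd3e, part of the T cell receptor (TCR) complex, stood at 41795 ± 812 and 43905 ± 352. Cd4 stood at 16.9 ± 8.34 and 52.95 ± 3.93, and Cd8b1, the β chain of conventional CD8+ T cells, at 191.6 ± 78.9 and 282.8 ± 27.8. None of these 4 genes was called different, though each lay higher in both knockout libraries than in both littermate libraries. Groups lay apart in this way, in either direction, for 41.6% of all tested genes. Of all 15 tested genes in the list of defining IEL markers, 2 rose (13.3%, against 1.49% of all genes), Gzmb and Il2rb. Another 2 fell (13.3%, against 1.23%), Cd160 and Ccr9. Transcripts of Cd8a and Cd3e were thus present in every library, but the marker list was not unchanged. Fold changes over all tested genes were centred near 0 (median log2 fold change 0.0018).

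In all, 413 genes were called (2.72% of those tested) at an adjusted p under 0.05 in limma's moderated test on log2(value + 1). Of these, 226 were higher in the knockout (1.49%) and 187 lower (1.23%). Most differences were small, since 35 of the higher and 35 of the lower genes differed by at least 2-fold. Values that did not overlap between groups were common, at 41.6% of all tested genes, so a lack of overlap by itself marks little with 2 libraries a group. The labels do not say whether the libraries of a group came from separate mice, and the p-values measure only the spread between these libraries. The calls also rest on a spread shared by genes of like level: without that trend, limma called 6 higher and 3 lower genes, among them Wnt11, Lrrk2, Pdcd1 and Defa33. Leaving out each library in turn, 169 of the 413 genes (84 higher, 85 lower) were called every time.

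**Figure D1:**
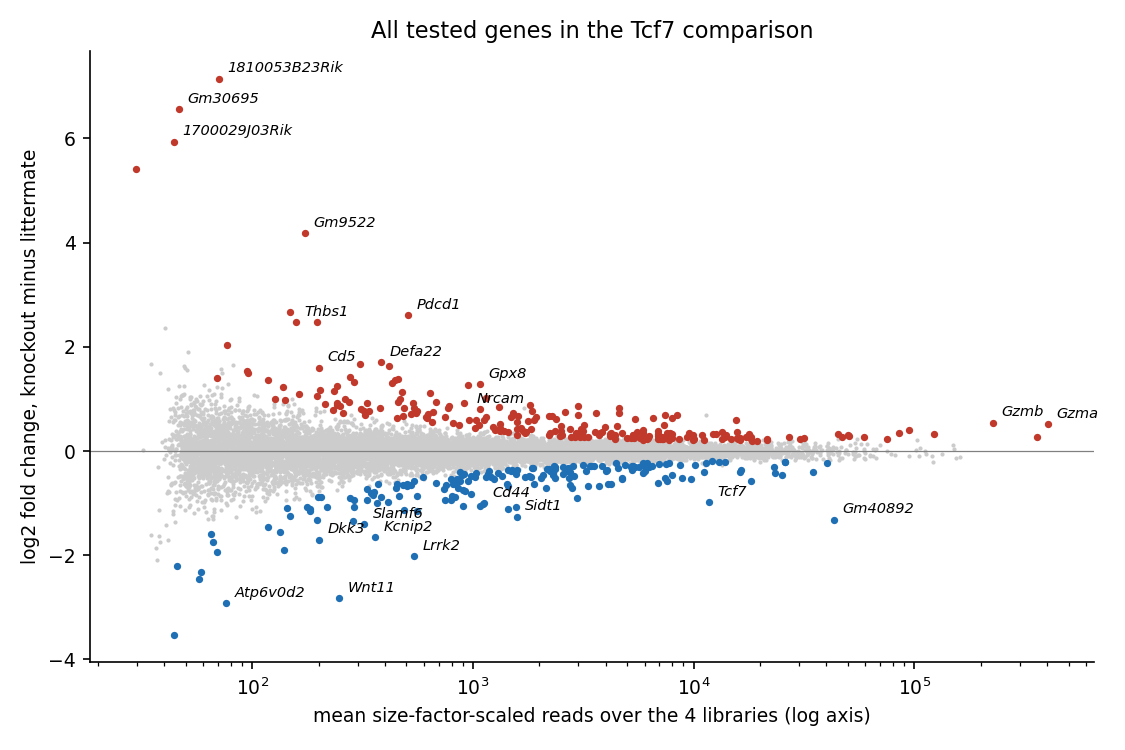
Each point is 1 of 15210 tested genes, with its mean scaled reads over the 4 libraries on a log axis and its log2 fold change (knockout minus littermate). Red points are the 226 genes called higher, blue points the 187 called lower and grey points the rest; Pdcd1 and Wnt11 lie far from 0 at moderate levels, while Gzma and Gzmb lie at the right with small positive changes.

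Tcf7 itself (chr11:52252371-52283014, minus strand, mm10) held 15430 and 15606 scaled reads in the littermate libraries and 7757 and 7993 in the knockout libraries. The knockout level was 50.7% of the littermate level, a log2 fold change of -0.98 ± 0.05 (SE; limma adjusted p = 2.1e-07). The value counts reads over the whole gene, so transcript from exons outside the deleted part is included, and how much intact transcript was left was not measured. Of 86 tested genes within 5 Mb of Tcf7 on either side, 3 were called, near the 2.72% of all genes, and all were lower: P4ha2, Gm2a and Gm12223. The closest relatives of Tcf7 were not called. Lef1 stood at 482 ± 47.7 scaled reads in littermates and 671.1 ± 73.7 in knockouts, with the groups apart (log2 fold change 0.48 ± 0.13, limma adjusted p = 0.088). Tcf7l1 stood at 246.9 ± 19.6 and 163.1 ± 4.39 (adjusted p = 0.17).

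Among genes of the Wnt pathway and the TCF/LEF factors, the 5 called genes were all lower, out of 37 tested: Tcf7, Wnt11, Lrrk2, Dkk3 and Rnf43. That is 13.5% of the list, against 1.23% of all genes called lower. The list's median log2 fold change was -0.02, with 17 members above 0 and 20 below. Tcf7 is the deleted gene, so its fall was set by the design. Wnt11, Dkk3 and Lrrk2 were put in the list with earlier results of these data known, and their calls are no independent evidence of the list's direction. The remaining call is Rnf43, so the share of 13.5% is no measure of a fall of the pathway.

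Wnt11 (chr7:98835112-98855195, plus strand) encodes a secreted Wnt ligand. It held 416.8 and 450.5 scaled reads in littermates and 64.7 and 55.8 in knockouts, 13.9% of the littermate level. Its log2 fold change was -2.83 ± 0.22 (adjusted p = 1.1e-05). Lrrk2 (chr15:91673175-91816120, plus strand), a large kinase and GTPase, held 822.2 and 918.7 in littermates and 215.9 and 210.1 in knockouts. That is a log2 fold change of -2.02 ± 0.14 (adjusted p = 4.7e-06), and both knockout values lay far under both littermate values. Dkk3 (chr7:112116017-112159057, minus strand), a secreted Dickkopf-family protein, held 311.2 and 307.0 in littermates and 88.6 and 100.3 in knockouts (log2 fold change -1.70 ± 0.21, adjusted p = 0.00035). Rnf43, a membrane ubiquitin ligase that removes Wnt receptors and is itself a Wnt target, fell by 0.63 on the log2 scale, from 1741 ± 25.1 to 1124 ± 43.1. Axin2, a widely used readout of Wnt/β-catenin signalling, stood at 1110 ± 34.6 and 860.1 ± 28.6 and missed the threshold (adjusted p = 0.059). Axin2 was called lower in limma on protein-coding genes only and with a replicate block, but not by edgeR or DESeq2. Ctnnb1, which encodes β-catenin, stood at 14116 ± 137 and 13740.2 ± 347 (adjusted p = 0.82), and Tle3, a corepressor that TCF1 can bind, at 15147 ± 343 and 14676 ± 111 (adjusted p = 0.78).

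Promoters are shown for Wnt11 and Lrrk2, which fell most in the Wnt list, for Pdcd1, described later, which rose most at a mean of at least 250 scaled reads, and for Greb1, picked by its letters, to show where the core TCF/LEF letters stand. Each sequence runs 5′ to 3′ on the gene's strand over 300 bases, from 250 before the transcript start to 50 after it, as RefSeq gives them on GRCm38.p6. The letters searched were CTTTGAT and CTTTGAA on both strands, and a match is in capitals. Greb1 is the only one of the 12 named lower genes (8 with a promoter in the table) that held a match, in the second of its promoters (chr12:16757190-16757489, minus strand). The Greb1 match began at base 40 after the start. Wnt11 (chr7:98834862-98835161) held a match on the opposite strand 51 bases before the start. Wnt11 has 2 RefSeq promoters, and the one with the most matches is shown. Lrrk2 (chr15:91672974-91673273) and Pdcd1 (chr1:94052504-94052803, minus strand) held none in this window.
Wnt11: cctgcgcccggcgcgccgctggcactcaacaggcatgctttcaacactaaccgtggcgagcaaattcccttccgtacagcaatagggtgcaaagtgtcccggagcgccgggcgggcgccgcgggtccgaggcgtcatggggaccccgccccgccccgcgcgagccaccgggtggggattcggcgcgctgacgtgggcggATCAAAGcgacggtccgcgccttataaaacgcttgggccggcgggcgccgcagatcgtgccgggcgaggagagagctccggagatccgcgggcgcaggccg
Greb1: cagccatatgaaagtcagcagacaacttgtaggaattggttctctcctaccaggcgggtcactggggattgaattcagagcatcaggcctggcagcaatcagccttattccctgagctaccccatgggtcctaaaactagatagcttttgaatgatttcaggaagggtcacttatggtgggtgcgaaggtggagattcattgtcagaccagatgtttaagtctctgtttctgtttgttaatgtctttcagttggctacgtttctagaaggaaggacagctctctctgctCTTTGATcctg
Lrrk2: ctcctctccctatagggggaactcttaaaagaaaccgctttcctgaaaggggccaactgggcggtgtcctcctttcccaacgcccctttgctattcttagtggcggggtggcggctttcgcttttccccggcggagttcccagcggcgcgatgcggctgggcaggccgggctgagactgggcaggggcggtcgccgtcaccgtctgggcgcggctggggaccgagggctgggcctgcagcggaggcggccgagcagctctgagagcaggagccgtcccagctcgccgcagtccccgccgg
Pdcd1: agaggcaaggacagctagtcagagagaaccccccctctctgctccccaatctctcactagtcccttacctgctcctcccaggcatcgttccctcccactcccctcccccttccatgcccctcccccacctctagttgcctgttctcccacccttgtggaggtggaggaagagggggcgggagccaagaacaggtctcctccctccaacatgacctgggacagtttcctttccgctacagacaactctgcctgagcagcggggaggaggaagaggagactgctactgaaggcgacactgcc

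Such a match was found in 8.65% of all 32851 promoters in the table and in 7.33% of the 10044 tested genes that have one. Genes called lower held it in 13 of 145 cases (8.97%), near those shares. Genes called higher held it in 23 of 171 cases (13.5%), and in 13 of 158 (8.23%) without the α-defensin genes, most of which rose together. A match describes the letters only, and binding was not measured.

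Genes of stem-like and memory T cells were lower where they were called: 6 of 30 tested fell (20.0%, against 1.23% of all genes). The list's median log2 fold change was -0.04, with 13 members above 0 and 17 below. Slamf6, a SLAM-family receptor used as a surface mark of TCF1+ stem-like CD8+ T cells, held 457.8 and 477.0 scaled reads in littermates and 152.3 and 202.6 in knockouts. Its log2 fold change was -1.41 ± 0.18 (adjusted p = 0.00048). Sidt1, a SID1-family transmembrane protein, fell from 2234 ± 55.5 to 932.2 ± 9.59 (log2 fold change -1.26). Nsg2, a vesicle-trafficking protein known from neurons, fell from 1975 ± 64.8 to 916.6 ± 91.4 (-1.11). Sidt1 and Nsg2 are listed here because of the RFP sort in this series, so they are no independent evidence. Bach2, a repressor that restrains effector differentiation, fell by 0.67, from 614.7 ± 44.2 to 386.0 ± 33.7 (adjusted p = 0.014). Ltb, the membrane anchor of lymphotoxin, fell by 0.64 and Ikzf2, the factor Helios, by 0.23. Of these 6, Bach2 and Ikzf2 were not called without knockout library 1, and Ikzf2 was also lost without knockout library 2 or without littermate library 2. Id3, another gene of this state, stood at 682.8 ± 8.74 and 724.7 ± 116 with overlapping groups (adjusted p = 0.87). Il7r, the interleukin 7 receptor, stood at 455.2 ± 3.57 and 537.0 ± 55.3 (adjusted p = 0.52). Ccr7, which guides T cells to lymph nodes, was under 100 in every library and was not called (adjusted p = 0.098).

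**Figure D2:**
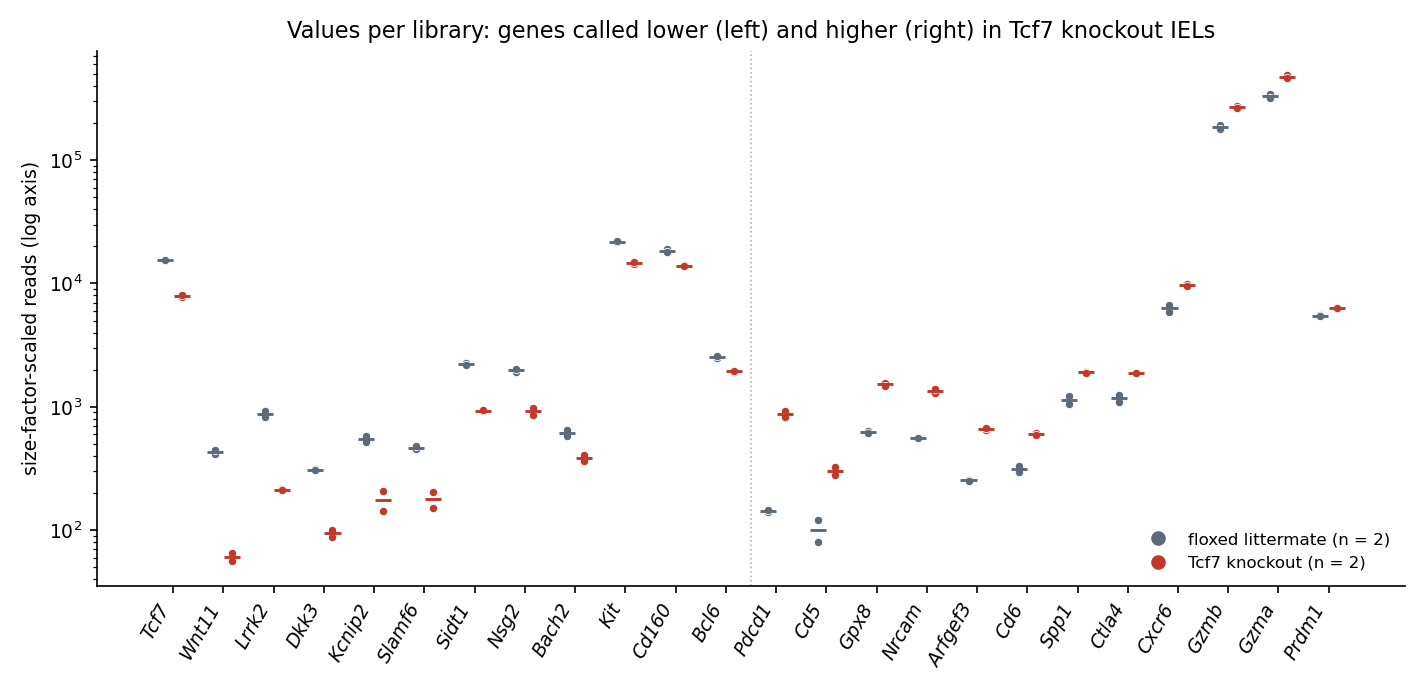
Scaled reads of named genes on a log axis, with 1 point per library (grey, 2 littermate libraries; red, 2 knockout libraries) and a bar at each group's mean. The 12 genes on the left were called lower in the knockout and the 12 on the right higher; the spread between 2 libraries of a group is small beside the difference for Wnt11, Lrrk2, Pdcd1 and Gpx8, and the differences of Prdm1 and Bcl6 are small in size.

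Of 37 tested cytotoxic effector genes, 11 rose (29.7%, against 1.49% of all genes), 1 fell and 25 were not called, and the list's median log2 fold change was 0.17. Its summed level was 891360 and 835182 scaled reads in littermates and 1155805 and 1103851 in knockouts. Gzma and Gzmb, given next, make up most of this sum and most of its rise. Gzma, the gene of the serine protease granzyme A, rose from 332789 ± 15634 to 476506 ± 18710 (1.43-fold, log2 fold change 0.52 ± 0.06, adjusted p = 0.00014). Gzmb, encoding granzyme B, rose from 185149 ± 9575 to 269828 ± 4767 (1.46-fold, adjusted p = 5.6e-05). Both knockout libraries lay above both littermate libraries for each granzyme. Under quantile normalization the differences of Gzma and Gzmb were 0, since that scaling gives genes of the same rank the same value in every library.

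The list held 9 other risers. Fasl, the ligand of the death receptor FAS, rose by 0.30 on the log2 scale and Gzmc, granzyme C, by 0.65. The chemokines Ccl3, Ccl4 and Ccl5 rose by 0.43, 0.48 and 0.34, and the galectin Lgals3 by 0.35. Spp1, the secreted protein osteopontin, rose from 1145 ± 124 to 1899 ± 26.6 (log2 fold change 0.73, adjusted p = 0.00031). Gpx8, a glutathione peroxidase of the endoplasmic reticulum, rose from 627.3 ± 17.3 to 1527 ± 57.4 (1.28, adjusted p = 7.3e-06). Tmem273, a small transmembrane protein, rose by 0.73. Gpx8, Spp1 and Tmem273 entered the list through the other experiments of this series, so their part in its count is not independent. The gene that fell was Xcl1, the chemokine that draws cross-presenting dendritic cells, from 5764 ± 330 to 4671 ± 127. Prf1, which encodes perforin, stood at 4431 ± 280 and 5128 ± 279 (adjusted p = 0.13), and Ifng at 205.4 ± 11 and 222.5 ± 16.1 (adjusted p = 0.88). Without knockout library 1, Fasl, Ccl4, Ccl5 and Lgals3 were not called, which left 7 of the 11 risers. Without knockout library 2, Gzmc and Xcl1 were not called.

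The largest rise at a mean of at least 250 scaled reads belonged to Pdcd1 (chr1:94038305-94052553, minus strand), which encodes the inhibitory receptor PD-1. It held 140.8 and 145.7 scaled reads in littermates and 925.5 and 827.3 in knockouts, 6.07-fold higher (log2 fold change 2.60 ± 0.15, adjusted p = 1e-06). The call was made under every alternative run, also without each library in turn. Among inhibitory receptors and genes induced through the TCR, 8 of 35 tested rose (22.9%, against 1.49% of all genes) and 4 fell (11.4%, against 1.23%). The list's median log2 fold change was -0.02. Cd5, a receptor that dampens TCR signals, rose from 100.7 ± 28.5 to 302.6 ± 32.5 (log2 fold change 1.60 ± 0.24, adjusted p = 0.0016). Cd6, its close relative, rose from 311.6 ± 23.7 to 599.8 ± 11.6 (0.94), and Ctla4, which competes for the ligands of CD28, from 1171 ± 97 to 1880 ± 2.16 (0.69). Cd5, Cd6 and Ctla4 are also the 3 called members, all higher, of the 11 tested genes in the list of CD4 and CD8αβ T cells. They are 27.3% of that list, against 1.49% of all genes. That list summed to 5720 and 5584 scaled reads in littermates and 6889 and 6759 in knockouts, with Cd4 and Cd8b1 at the levels given above. In bulk samples, fewer cells of a type and less RNA per cell cannot be told apart. The part of such cells in these 3 genes was not tested.

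Other members of that list were called as well. Entpd1, the ectonucleotidase CD39, rose by 0.50 on the log2 scale, Tnfrsf9, the costimulatory receptor 4-1BB, by 0.40, Irf8 by 0.26 and the phosphatase Dusp5 by 0.23. Tnfsf14, the TNF-family ligand LIGHT, fell by 0.93, from 1043 ± 17.6 to 549.1 ± 88.3. Spry2, a feedback inhibitor of receptor kinase signalling, fell by 0.51, and the nuclear receptors Nr4a2 and Nr4a3 by 0.22 and 0.29. Irf8, Dusp5, Nr4a2 and Nr4a3 were not called without knockout library 1 or without knockout library 2, and Nr4a3 also not without littermate library 2. Other receptors often named with PD-1 were not called: Lag3 stood at 19930 ± 1241 and 20440 ± 217, Tigit at 17437 ± 582 and 17254 ± 277, and Havcr2 (TIM-3) at 53.7 ± 18.2 and 68.5 ± 22.3, each with overlapping groups. Tox, a factor tied to chronic stimulation, stood at 7645 ± 189 and 7227 ± 43.4 (adjusted p = 0.59).

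Of 46 tested genes of the TCR complex and its signalling, 5 rose (10.9%, against 1.49% of all genes) and 1 fell (2.17%, against 1.23%). Themis, a thymocyte selection protein that sets TCR signal strength, rose from 1233 ± 65.8 to 1958 ± 63.2 (log2 fold change 0.67, adjusted p = 0.00028). Malt1, a protease of the NF-κB branch, rose by 0.38 and the membrane adaptor Pag1 by 0.29, and Cd5 and Cd6 complete the count. Dgka, a diacylglycerol kinase that ends part of the signal, fell from 8327 ± 241 to 5406 ± 122 (log2 fold change -0.62, adjusted p = 2.2e-05). Pag1 was not called without knockout library 1, knockout library 2 or littermate library 1.

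Called NK receptor genes were mainly lower. Of 37 tested NK receptor and adaptor genes, 6 fell (16.2%, against 1.23% of all genes) and 1 rose (2.7%, against 1.49%). The list's median log2 fold change was -0.01, with 17 members above 0 and 20 below. Cd160, an IEL receptor for HVEM and the marker of the RFP sort, held 18924 and 18073 scaled reads in littermates and 14130.5 and 13788 in knockouts (log2 fold change -0.41 ± 0.05, adjusted p = 0.00026). Klre1, a killer lectin-like receptor, fell by 0.67, and Klra5, Klra6 and Klra1 of the Ly49 family by 0.52, 0.38 and 0.53. The Ly49 genes are near-identical copies whose reads may be split between them, and Klra1 was not called without knockout library 1, knockout library 2 or littermate library 1. Crtam, a receptor of activated cytotoxic cells, fell from 3385 ± 313 to 2147 ± 37.5. The gene that rose was Il2rb, the β chain of the receptors for interleukins 2 and 15, from 81654 ± 339 to 108590 ± 515 (0.41, adjusted p = 0.00017). Klrk1, which encodes NKG2D, stood at 498.5 ± 22.7 and 373.0 ± 28 (adjusted p = 0.17), and the adaptor Tyrobp at 10011 ± 66 and 11385 ± 110 (adjusted p = 0.063).

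Receptors for cytokines and chemokines split evenly, with 5 of 31 tested genes higher and 5 lower. Each count is 16.1% of the list, against 1.49% of all genes higher and 1.23% lower. Kit, the receptor of stem cell factor, held 21601 and 22168 scaled reads in littermates and 14282 and 14910 in knockouts (log2 fold change -0.58 ± 0.05, adjusted p = 1.5e-05). Il6st, the signal chain gp130, fell by 0.47, Tgfbr3 by 0.48 and Il9r by 1.59. Ccr9, a gut-homing receptor, fell by 0.26. Cxcr6, a receptor of resident T cells, rose from 6313 ± 606 to 9729 ± 169 (0.63), and Il12rb1 by 0.22. Xcr1, the receptor of Xcl1, was near the lower limit of detection at 37.6 ± 6.12 and 100.3 ± 9.49. Il2rb is also among the genes that rose. Ccr9, Xcr1, Il9r and Il12rb1 were not called without knockout library 1 or without knockout library 2, and Xcr1 and Il9r also not without littermate library 1. Tgfbr3 was not called without knockout library 1. In the residency and gut homing list, 2 of 37 rose, Cxcr6 among them (5.41%, against 1.49% of all genes). Another 3 fell (8.11%, against 1.23%): Ccr9, the integrin Itgal by 0.51 and the TGF-β mediator Smad3 by 0.46. Smad3 was not called without knockout library 2. Itgae, the integrin CD103 that holds IELs to the epithelium, stood at 144298 ± 884 and 155322 ± 2180 (adjusted p = 0.38).

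Of 76 tested transcription factors, 6 rose (7.89%, against 1.49% of all genes) and 3 fell (3.95%, against 1.23%), and the median log2 fold change was 0.03. Bcl6 held 2471 and 2589 scaled reads in littermates and 1929 and 1950 in knockouts (log2 fold change -0.38 ± 0.07, adjusted p = 0.0065). Prdm1 held 5516 and 5458 in littermates and 6380 and 6361 in knockouts (0.22 ± 0.05, adjusted p = 0.045). These are the factors that TCF1 is known to raise and to hold down, and both calls were made at changes well under 2-fold. The Bcl6 call was lost without knockout library 1, and the Prdm1 call without knockout library 1, without knockout library 2, with no filter, with rescaled totals and with quantile normalization. Maf rose from 229.9 ± 61.2 to 431.2 ± 26.2 (0.93, adjusted p = 0.017) and Foxo3 by 0.27, Klf10 by 0.40 and Bhlhe40 by 0.31. Irf8 makes up the 6. Maf and Klf10 were not called without knockout library 1 or without knockout library 2, and Foxo3 was not called without knockout library 2. Bach2, Bcl6 and Ikzf2 are the 3 that fell, and Tcf7 is counted in the Wnt list. Id2 stood at 7110 ± 115 and 7192 ± 99.9 (adjusted p = 0.94), Runx3 at 25993 ± 257 and 27853 ± 820 (adjusted p = 0.41) and Tbx21, which encodes T-bet, at 6572 ± 104 and 5882 ± 174 (adjusted p = 0.18). Myb stood at 125.8 ± 7.76 and 129.1 ± 3.19 (adjusted p = 0.97). Eomes did not reach the filter, at 37.1 ± 4.06 and 33.88 ± 4.29.

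None of the 51 tested cell cycle genes, 29 cholesterol synthesis genes, 23 glycolysis genes or 8 GIMAP GTPase genes was called by limma, edgeR or DESeq2. At an unadjusted p under 0.05 in limma they held 8 of 51, 3 of 29, 5 of 23 and 0 of 8, beside 12.6% of all genes. The cell cycle and glycolysis shares lay above that of all genes, and the cholesterol synthesis and GIMAP shares under it. Of 56 interferon-stimulated genes, 1 was called (Slfn5, higher), or 1.79%, near the 1.49% of all genes. Mki67, the proliferation marker, stood at 1835 ± 230 and 1510 ± 19.7 (adjusted p = 0.17). Among survival genes, 4 of 44 rose (9.09%, against 1.49% of all genes) and 1 fell (2.27%, against 1.23%). The kinase genes Pim2 and Pim1 rose by 0.61 and 0.32, the antiapoptotic Bcl2l1 by 0.34 and the proapoptotic Bmf by 0.61, while Traf1 fell by 0.31. Among immediate-early and heat-shock genes, 5 of 47 rose (10.6%, against 1.49% of all genes) and 3 fell (6.38%, against 1.23%). The inducible chaperones Hspa1a and Hspa1b, near-identical copies, fell by 0.42 and 0.40 and Dnajb1 by 0.24. Hspa5, a chaperone of the endoplasmic reticulum, rose by 0.27, and Fosl2, Atf3, Gadd45b and Gadd45g rose by 0.20 to 0.94. Without knockout library 1, Slfn5, Bcl2l1, Traf1, Hspa5, Dnajb1, Fosl2, Atf3, Gadd45b and Gadd45g were not called. Without knockout library 2, the same genes except Traf1 and Gadd45g were not called. Fosl2 and Dnajb1 also lost their calls without littermate library 1, and Atf3 without littermate library 2.

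**Figure D3:**
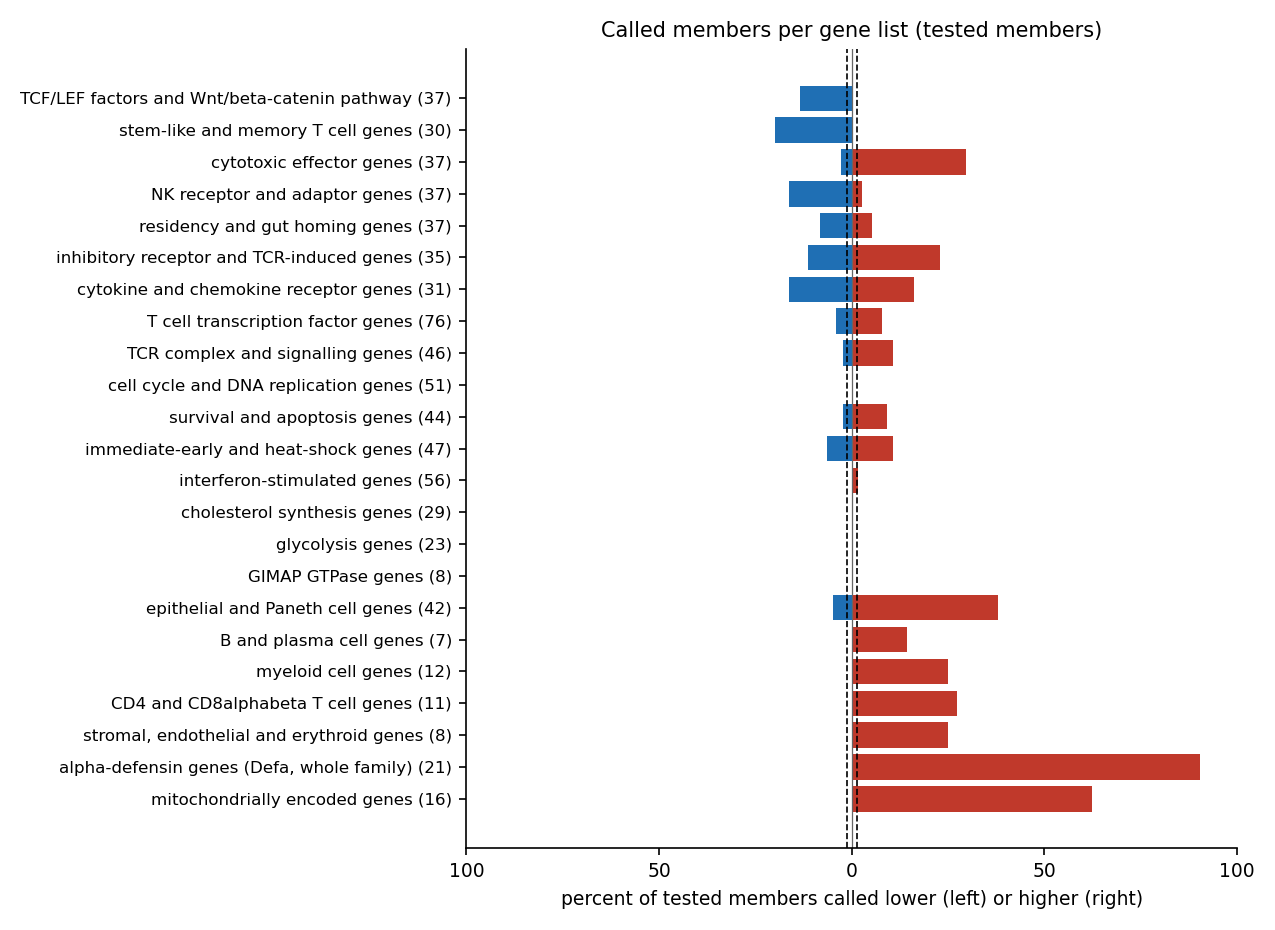
Percent of the tested members of each gene list called lower (blue, left) or higher (red, right) in the knockout; the number of tested members is in brackets and dashed lines mark the background over all genes, 1.23% lower and 1.49% higher. Cytotoxic effector genes lie mainly to the right and stem-like genes to the left, and the α-defensin bar reaches 90.5%. The list of defining IEL markers is not drawn.

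The largest falls outside these lists, at a mean of at least 250 scaled reads, spanned many functions. Kcnip2, a subunit of potassium channels, fell from 545.7 ± 42.5 to 175.0 ± 45.3 (log2 fold change -1.66 ± 0.19, adjusted p = 0.00021). Tdrp fell by 1.35, the copine Cpne7 by 1.13, Morc1 by 1.07, the tropomyosin Tpm4 by 1.06, the RAS-related GTPase Mras by 1.05, the phospholipid flippase Atp8a2 by 1.01 and Greb1 by 1.01. Cd44, an adhesion receptor of activated and memory T cells, chosen after its values were seen, fell from 1502 ± 55.6 to 754.0 ± 19.3 (-0.99). The most strongly supported fall in the table, by adjusted p, was that of a RefSeq gene model, Gm40892 (chr12:92883718-92894950). It held 62079 and 61569 scaled reads in littermates and 24462 and 25234 in knockouts (-1.32 ± 0.05, adjusted p = 4.4e-09), so its groups lay far apart. Among the rises, the formin Fmnl2, which builds actin filaments, rose by 1.42, Arfgef3 by 1.37 and the adhesion molecule Nrcam by 1.28, from 557.7 ± 1.4 to 1352 ± 71.6.

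Transcripts of other cells moved with the genotype as well. The epithelial and Paneth cell list summed to 28394 and 27608 scaled reads in littermates and 38471 and 36170 in knockouts. Of its 42 tested genes, 16 rose (38.1%, against 1.49% of all genes) and 2 fell (4.76%, against 1.23%). The α-defensins, antimicrobial peptides of Paneth cells at the crypt base, were among them. Of 21 tested Defa genes, 19 rose (90.5%, against 1.49% of all genes). The summed level of the 28 in the table went from 7154 and 6465 to 13898 and 12735. Defa22, for example, stood at 179.9 ± 10.8 in littermates and 588.3 ± 71.6 in knockouts (log2 fold change 1.70, adjusted p = 4.8e-05). These genes are near-identical copies in 1 cluster on chromosome 8, so reads can be split among them and the 19 calls are not separate findings. The Paneth cell lysozyme Lyz1 rose from 2126 ± 163 to 3867 ± 240 and the lectin Itln1 from 944.5 ± 2.13 to 1689 ± 128. Muc2, the main mucin of goblet cells, rose by 0.93. The 2 that fell, Reg3b and Reg3g, are antimicrobial lectins of the epithelium and fell by 0.86 and 0.65. Epcam, a general epithelial marker, stood at 4525 ± 142 and 5236 ± 246 (adjusted p = 0.092). Of the 16 risers in the epithelial list, 7 were called without knockout library 1 and 11 without knockout library 2, and of the 19 defensins 12 and 15.

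Lists for other cells are read against 1.49% of all genes called higher and 1.23% lower. In the B and plasma cell list 1 of 7 tested rose (14.3%; Xbp1, also expressed by T cells), in the myeloid list 3 of 12 (25.0%; Itgam, Fcgr3 and Xcr1), and in the stromal, endothelial and erythroid list 2 of 8 (25.0%; Hbb-bs and Hba-a1). Of these, Xbp1, Fcgr3, Xcr1, Hbb-bs and Hba-a1 were not called without knockout library 1 or without knockout library 2, and Xbp1 also not without littermate library 2. In the B and plasma cell list 6 tested members lay above 0 and 1 below (median log2 fold change 0.24). In the myeloid list 8 lay above 0 and 4 below (0.15). The first list summed to 6604 and 6001 scaled reads in littermates and 7354 and 7464 in knockouts. The myeloid list summed to 33980 and 33465 in littermates and 36040 and 36016 in knockouts. Under the filter, the B cell marker Cd79a stood at 31.4 ± 14.9 and 20.8 ± 2.69. The macrophage marker Csf1r, also under it, stood at 9.02 ± 3.39 and 6.23 ± 4.58. Itgam and Fcgr3 were called lower in the Prdm1 deletion (log2 fold changes -3.49 and -1.17). They were also called lower in RFP+CD160+ cells (-1.12 and -2.11). Which cells their transcripts came from was not tested. In the innate lymphoid and mast cell list 1 of 4 fell (25.0%; Kit). No tested gene stood for γδ T cells, since none of the 3 in the table passed the filter. None of the genes of these lists was at 0 in all 4 libraries. The part of epithelial transcripts in the other results was not tested.

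**Figure D4:**
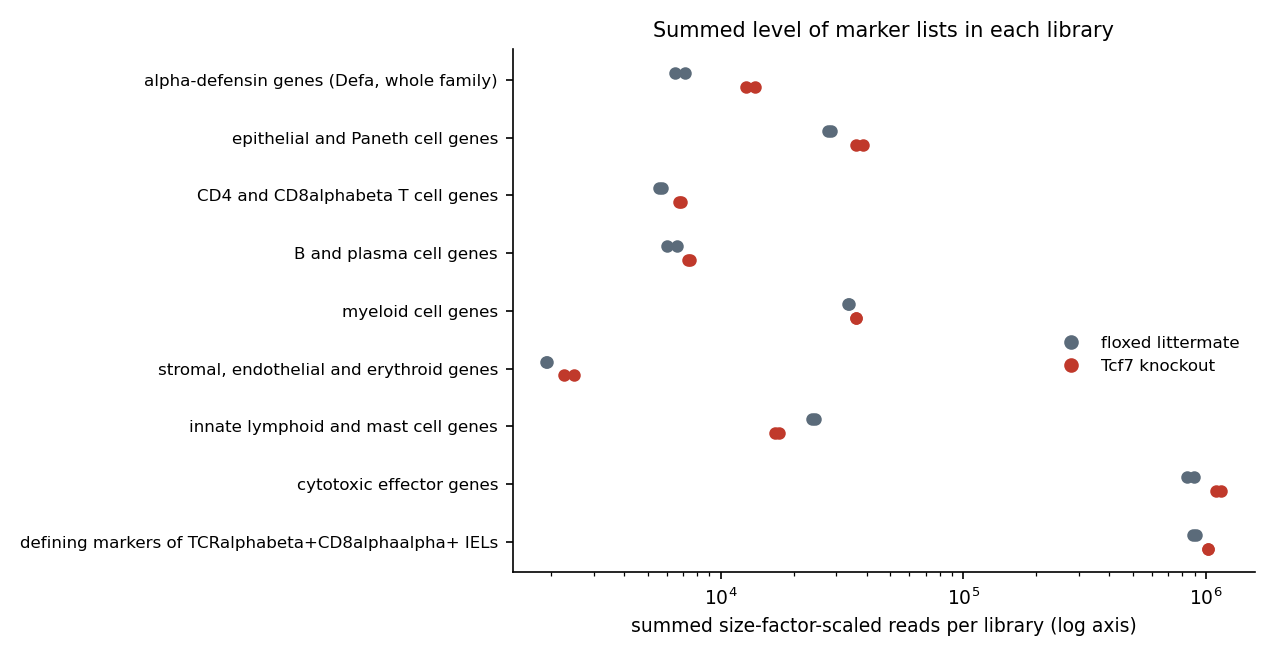
Summed scaled reads of 9 marker lists in each library, on a log axis (grey, 2 littermate libraries; red, 2 knockout libraries). The sum of every drawn list except innate lymphoid and mast cell genes lies higher in both knockout libraries than in both littermate libraries. Gzma and Gzmb dominate the cytotoxic sum. The sum of innate lymphoid and mast cell genes, which Kit dominates, lies lower.

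Genes encoded by the mitochondrial genome, a list added after the values were seen, also rose. Of 16 tested, 10 rose (62.5%, against 1.49% of all genes) and none fell, with log2 fold changes over the list from 0.14 to 0.69. The large ribosomal RNA mt-Rnr2 rose from 5663 ± 510 to 9141 ± 21.4 and CYTB, cytochrome b, from 75402 ± 2129 to 95429 ± 440. The list summed to 750942 and 704749 scaled reads in littermates and 889655 and 878276 in knockouts. Under quantile normalization COX1 had a difference of 0 and lost its call. Without knockout library 1 the list had 3 calls and without knockout library 2 it had 4.

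A stretch of chromosome 16 between Runx1 and Setd4, also found after the values were seen, gave reads almost only in the knockout. The 3 listed genes there span 144.6 kb. 1810053B23Rik (chr16:93342504-93366668) had 0 and 0 reads in littermates and 142 and 148 in knockouts, at least 45.6-fold higher against a floor of 3 reads per library. Gm30695 (chr16:93472167-93487074) had 0 and 0 against 89 and 103, at least 30.2-fold higher. 1700029J03Rik (chr16:93391677-93458872) had 0 and 1 against 82 and 100 reads, a ratio of 171 with a 95% counting interval of 30.4 to 6810. 1810053B23Rik and Gm30695 are the only genes of the table at 0 in both littermate libraries and at 50 or more scaled reads in both knockout libraries, and no gene showed the opposite. The flanking genes were not called: Runx1 stood at 2477 ± 305 and 2746 ± 86.8 (adjusted p = 0.48) and Setd4 at 835.2 ± 47.6 and 769.2 ± 18.3 (adjusted p = 0.73). Such intervals and floors cover counting error only.

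Calls lay mainly in protein-coding genes, of which 209 were higher and 175 lower out of 11433 tested (3.36%). The share was 1.24% of 1125 noncoding genes and 0.566% of 2652 pseudogenes. Chromosome 8, with the defensin cluster, held the largest share among the autosomes (5.13%).

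The genes of the Tcf7 comparison were set beside the 3 other experiments, which share no library with it. Tables were normalized separately and values of the RFP sort and the Bcl6 deletion are FPKM (reads per gene length and depth), so values were only placed side by side and differences between experiments were not tested. In the sort, 38.0% of tested genes were called, 16.4% higher and 21.6% lower in RFP+CD160+ cells. Of the 162 genes higher in the Tcf7 knockout that were tested there, 119 (73.5%) were lower in RFP+CD160+ cells and 9 (5.56%) higher. Of 160 genes lower in the Tcf7 knockout, 107 (66.9%) were higher in RFP+CD160+ cells and 23 (14.4%) lower. These shared genes make up 5.71% of the genes lower and 6.82% of those higher in RFP+CD160+ cells. Genes that rose without Tcf7 were thus mostly ones that RFP-CD160- cells express more.

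In the Prdm1 deletion, where 6.84% of tested genes were called (4.29% higher, 2.54% lower), 68 of 187 genes (36.4%) that rose in the Tcf7 knockout fell and 9 rose. Of 173 that fell in the Tcf7 knockout, 64 (37.0%) rose without Prdm1 and 5 fell. These are 24.5% and 14.4% of the calls of the Prdm1 deletion in each direction. The Bcl6 deletion had few calls (0.418%, with 0.0313% higher and 0.387% lower), of which 8 lower and 1 higher were among 161 Tcf7-knockout risers and 7 lower among 143 fallers. Ltb and Id3 were among the genes lower without Bcl6 (log2 fold changes -1.01 and -1.77, adjusted p = 0.042 and 0.0054).

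Single genes are given side by side. Tcf7 itself stood at 4.93 ± 1.33 FPKM in RFP-CD160- cells and 233.6 ± 10.1 in RFP+CD160+ cells (SD, n = 3), and at 9536 ± 4145 scaled reads in Prdm1 littermates and 30025 ± 1514 in Prdm1 knockouts (n = 2). Wnt11 rose from 836.4 ± 59.3 to 2894 ± 39.1 scaled reads without Prdm1 (log2 fold change 1.79, limma adjusted p = 0.0022), against its fall of 2.83 without Tcf7, but was not called in the sort (0.80 ± 0.32, adjusted p = 0.085). Lrrk2 rose from 614.5 ± 234 to 2370 ± 35.7 without Prdm1 (2.00, adjusted p = 0.0072) and was higher in RFP+CD160+ cells by 2.41. Gzma, which rose by 0.52 without Tcf7, fell without Prdm1 (log2 fold change -4.68, adjusted p = 0.0025) and was lower in RFP+CD160+ cells (-7.07). Gpx8 showed the same directions, with log2 fold changes of 1.28 without Tcf7, -5.07 without Prdm1 and -5.03 in RFP+CD160+ cells. Gpx8 entered its list through these other experiments, and Wnt11 and Lrrk2 were listed with earlier results known. Their directions are thus no independent evidence. Some genes did not follow these directions. Mras and Atp8a2, which fell without Tcf7, also fell without Prdm1 (log2 fold changes -0.66 and -1.99, adjusted p = 0.048 and 0.03) and were lower in RFP+CD160+ cells (-1.59 and -1.61). Pdcd1 rose by 2.60 without Tcf7, was higher by 1.56 in RFP+CD160+ cells (0.232 ± 0.196 against 2.65 ± 0.781 FPKM, adjusted p = 0.0003) and was not called without Prdm1 (0.34 ± 0.27, adjusted p = 0.53).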

How the data were processed

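Sorted-cell total RNA was sequenced by the submitters, with libraries made by BGI Genomics or Novogene (which one is not stated), per the labels' protocols. Tools listed without role or order, per the submitters' processing notes, are RSEM, DESeq2, featureCounts, Subread, Bowtie2 and Trim Galore 0.4.4, and the build is mm10. The deposited values of the Tcf7 and Prdm1 experiments are a signal, reads divided by a size factor per library, although they carry the name FPKM: 100% are whole multiples of 1 read (tolerance 0.01). The deposited values of the RFP sort and the Bcl6 deletion are FPKM made by the authors. Steps such as strand setting are not given in the sources used here, and reads of overlapping or antisense genes cannot be told apart.

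Values were tested as log2(value + 1) with limma 3.58.1 in R 4.3.3 (lmFit, eBayes with a mean-variance trend, two-sided, Benjamini-Hochberg threshold 0.05), in each experiment alone, on genes with at least 50 in signal or 1 FPKM in 2 libraries (3 for the sort). Fold changes are on that scale and understate low genes. edgeR 4.0.16 and DESeq2 1.42.0 on the recovered read counts were alternatives only. The other alternatives were pseudocount 10, filters, rescaled totals, quantile normalization, protein-coding genes only, a replicate block, leaving out each library and, chosen after seeing the data, limma without the trend. Depth was 40975335 to 48206386 reads per library.

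The members and gene lists were chosen with earlier results of these data known. Named genes are 16 fixed genes, the 12 largest changes in each direction among called genes with a mean of at least 250 and groups apart (no gene models, receptor segments or pseudogenes), and up to 4 called genes per list by p. Further called list members, genes of the chromosome 16 stretch, mitochondrial genes, Gm40892 and Cd44 were named after their values were seen. Positions are from GENCODE vM21 (84.8% of symbols matched) or RefSeq GRCm38.p6. Receptor constant segments and the 2 libraries with no group were not used here. Some items are not reported here.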

Additional observations from a re-analysis of the deposited data

How the results depend on the processing

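The 226 higher and 187 lower genes became 228 and 191 with pseudocount 10, 185 and 157 without the filter, 218 and 183 at a filter of 250, 204 and 201 with rescaled totals, 209 and 181 with quantile normalization and 230 and 218 among protein-coding genes only. On recovered reads edgeR called 229 and 200 genes, 406 of them shared with limma, and DESeq2 247 and 220, 412 of them shared. No called gene was called in the opposite direction under any of these settings. Without 1 library the counts ranged from 108 to 407 higher and from 109 to 360 lower: leaving out knockout library 1 gave 109 and 109 and knockout library 2 gave 108 and 126, while leaving out littermate library 1 gave 375 and 360 and littermate library 2 gave 407 and 341. In these fits the lone library is assumed to vary like the other group. Without the mean-variance trend limma called 6 and 3 genes, so the number of calls depends on a spread shared between genes of like level. The cause of the other shifts was not tested. A replicate block gave 495 and 482 genes, which hold all 413, but the libraries share only a number (r = 0.064 between deviations of same-numbered libraries over 15210 genes), and no pairing is stated. Low values limit Eomes, Cd4 and other genes near the filter.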
